A study of Homo sapiens with 8 samples.

Results

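Histone genes were followed in human H7 embryonic stem cell-derived cultures that had been left untreated or exposed to bleomycin, a drug that breaks DNA. The genes were chosen by symbol alone: every symbol of the count table of the form H1 with a number, or H2A, H2B, H3 or H4 with a cluster number (such as H2BC4), together with the named variants H2AX, H2AZ1, H2AZ2, H2AJ, H3-3A, H3-3B, MACROH2A1 and MACROH2A2. This gave 78 of 46427 symbols. They fell into 66 clustered genes, 4 solitary linker histone genes, which lie outside the clusters, and 8 core variants. The cultures are wild type by their labels, which name the end stage as differentiated type 2 alveolar cells; in the lung such cells produce surfactant. They were derived through definitive endoderm, anterior foregut and ventralized foregut to lung progenitors in 21 days, followed on inserts by 3 days under medium and 7 days at an air-liquid interface. All groups share this line and protocol, and the treated groups received 500 µl of bleomycin at 24, 240 or 480 µg/ml on the apical side for 24 hours. The labels give the bleomycin stock as 10 µg/ml, below all 3 doses, so the doses are used here as labelled and their true size is uncertain. There were 4 groups of 2 libraries. Separate cultures are not stated for these, so p-values set differences only against the spread between libraries of a group, which may be technical.

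A nucleosome wraps DNA around the core histones H2A, H2B, H3 and H4, and the linker histone H1 sits where DNA enters and leaves. The clustered genes make the bulk supply in S phase, when new DNA must be packaged; their mRNAs typically have no intron and no poly(A) tail and end instead in a short stem-loop, which the stem-loop binding protein SLBP holds. Most variants are made throughout the cell cycle from ordinary polyadenylated mRNAs and replace clustered histones at chosen places, as H3.3 does in active chromatin. H2AX is phosphorylated around DNA breaks, and this form marks the lesion. The libraries were made with a TruSeq stranded mRNA kit, which selects polyadenylated RNA. How many of the clustered reads come from molecules with a tail was not tested, and the amount of histone mRNA and the share of it that carries a tail cannot be told apart here.

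The stem-loop can be read in the sequence of many clustered genes. In the transcripts of GENCODE release 29 (build GRCh38), 32 of the 66 clustered genes have a transcript that runs at least 40 bases past the stop codon, and 28 of the 66 carry the histone stem-loop consensus there, a stem of 6 pairs around a loop of 4 bases. The models of many other clustered genes, H1-2 among them, end at or close after the stop codon, so no sequence was there to search. Among the 8 variants H2AX alone has it, and none of the 4 solitary linker genes does. Over all protein-coding genes 147 of 19684 (0.747%) hold the pattern anywhere in a transcript. The most common clustered form is shown with those of the genes described most closely here, read along the mRNA with T for U and the loop in capitals; the coordinates are those of the gene named first.
H2AC6, chr6:26124669-26124684, plus strand, also H2AC8, H2AC18 and H2BC8: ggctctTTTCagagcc
H2BC4, chr6:26123472-26123487, minus strand, also H2BC5: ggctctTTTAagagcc
H4C15, chr1:149860769-149860784, minus strand, also H4C14: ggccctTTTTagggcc
H4C8, chr6:26285131-26285146, minus strand: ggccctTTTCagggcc
H2AX, chr11:119094898-119094913, minus strand: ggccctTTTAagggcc
Of the 28 clustered genes, 20 also have a transcript that continues more than 100 bases beyond the stem-loop, and for H2BC4 and H2AC6 the annotation holds a spliced transcript without it besides the one that carries it.

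Total counts ran from 53431773 to 67715984 per library, and 3 counts, the most that a count of 0 allows, equal 0.0439 to 0.0576 CPM, the unit of level used here (counts scaled to a common library size); such limits cover counting error only. Libraries at 480 µg/ml lay furthest apart: the log2 ratio of the replicates had an SD over genes of 0.371 there and of 0.190 to 0.212 in the other groups. SFTPC, the defining surfactant gene, was listed at 0 in 6 of 8 libraries, while AFP, a fetal liver gene, stood at 42583 and 44115 CPM in untreated cells, so the label of type 2 alveolar cells is not borne out by that marker. Of a list of 10 type 2 alveolar markers, 7 passed the filter on low counts. The 10 summed to 163 and 165 CPM in untreated cells, beside 54034 and 55635 CPM for 9 hepatic markers. CDKN1A, the p53-induced cell cycle inhibitor, rose with log2 fold changes of 2.03 ± 0.19 at 240 and 2.46 ± 0.19 at 480 µg/ml, and MKI67, a marker of proliferating cells, changed by -1.49 ± 0.23 and -2.28 ± 0.24. Adjusted p-values come from edgeR over 18303 genes, a gene is called when its adjusted p is under 0.05, and errors of log2 fold changes are SE. The 4 groups share a common estimate of the spread, so tests at 480 µg/ml borrow from groups whose libraries lay closer together.

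In untreated cells the clustered genes gave little signal beside the variants. Summed over the class, the 66 clustered genes stood at 96.9 and 88.2 CPM in the 2 untreated libraries and the 8 variants at 999 and 987 CPM. Per length, the highest clustered level was that of H1-2, with 51.1 ± 1.57 TPM (mean ± SD, n = 2 as for all TPM values), followed by H2BC12 with 49.4 ± 2.49 and H2BC5 with 47.3 ± 0.191 TPM. Neighbours in this order did not differ beyond their spread. A lower step held H2AC6 with 26.8 ± 1.15 TPM and the near-identical H2AC19 and H2AC18 with 24.6 ± 2.17 and 23.1 ± 1.94 TPM. Among the variants H3-3A stood at 561 ± 7.68, H2AZ1 at 459 ± 19.1 and H3-3B at 227 ± 12.8 TPM. Most clustered genes were near 0: 31 of 66 passed the filter on low counts, the highest count of a gene that did not pass was 11, and 3 genes had no count in any library. Of the 31, 25 had at least 10 counts in both untreated libraries, while 4 (H1-4, H2AC17, H2BC7 and H3C4) had under 10 in both and passed through treated libraries. The other 2 had under 10 in 1 untreated library and passed with the help of treated ones. Of these 2, H2AC13 was called at 480 µg/ml.

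The summed clustered level was higher at 240 and 480 µg/ml, while that of the variants stayed within 1.06-fold on the means. The clustered sum was 96.9 and 88.2 CPM in untreated cells, 109 and 87.7 at 24, 189 and 174 at 240, and 297 and 369.5 CPM at 480 µg/ml. The 24 µg/ml libraries overlapped the untreated ones, and each library of 240 lay above all of these and below both of 480 µg/ml. On the means this was 1.06-fold, 1.96-fold and 3.60-fold the untreated level. The variant sum was 999 and 987 CPM in untreated cells and 965 and 988 at 24, 1022 and 1074 at 240, and 995 and 1106 CPM at 480 µg/ml, 1.06-fold the untreated mean at 480 µg/ml. On the deposited TPM its ratio at 480 µg/ml was 0.938, so the direction of this small difference depends on the scale. Set against the variants, clustered counts made a ratio of 0.097 and 0.0893 in untreated libraries and 0.298 and 0.334 at 480 µg/ml. The sums carry no test, because 2 libraries against 2 cannot pass an exact permutation test.

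**Figure D1:**
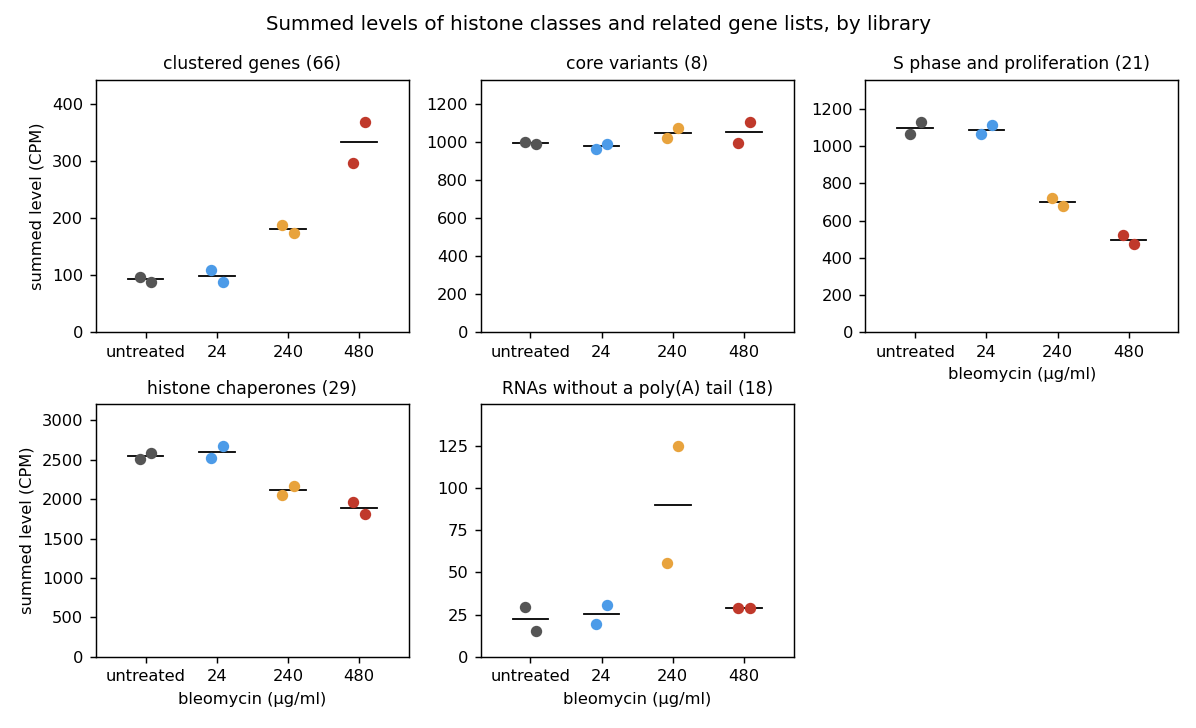
Summed level in CPM (counts scaled by TMM) of 2 classes of histone genes and 3 related gene lists, against bleomycin dose in µg/ml. Each point is 1 library and each bar the mean of 2; the clustered sum goes from 88.2 to 96.9 CPM in untreated cells to 297 and 369.5 CPM at 480 µg/ml, the variant sum stays between 965 and 1106 CPM and the S phase sum is lowest at 480 µg/ml.

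By gene, 12 of the 31 tested clustered genes were called higher at 240 µg/ml and none lower, where 5.16% of all genes tested were called higher, 5.17% lower and 10.3% in either direction. At 480 µg/ml 18 of 31 were higher and none lower, where 13.9% of all genes were called higher, 13.9% lower and 27.8% in either direction. Near copies that share reads count as separate genes in these numbers: H2AC18 and H2AC19, and H4C14 and H4C15, were each called at both doses. At 24 µg/ml edgeR called no member and 0% of all genes. At an unadjusted p under 0.05 there were 2 of 31 clustered genes, H3C4 at 1.44 ± 0.60 and H2AC7 at -2.95 ± 0.91, and 605 of all 18303 genes. DESeq2 called 32 higher and 4 lower there of the 18303 genes, and it too called no clustered gene. Among the 25 clustered genes with at least 10 counts in both untreated libraries, 12 and 16 were called higher at 240 and 480 µg/ml, and a fit with no filter called 12 and 19. The median log2 fold change of the 31 was 0.15, 0.81 and 1.46 at the rising doses, beside medians of 0.01 over all genes tested. These medians include the genes that passed the filter through treated libraries. At 480 µg/ml the 4 with under 10 counts in both untreated libraries stood at 2.18 (H1-4), 0.82 (H2AC17), 1.39 (H2BC7) and 2.97 (H3C4). The 8 variants, all of them tested, had no call at 24 or 240 µg/ml, where DESeq2 called 2 higher and 1 lower at the latter dose, and at 480 µg/ml 3 were called higher and 2 lower with a median of 0.02. The count at 240 µg/ml leaned on each untreated and each 240 µg/ml library: with an untreated library left out, 1 clustered gene was called, with a 240 µg/ml library left out, 3 or 2, while calls over all genes fell as well, to 68 and 69 higher without an untreated library. At 480 µg/ml leaving out any library left 15 to 18 clustered calls.

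**Figure D2:**
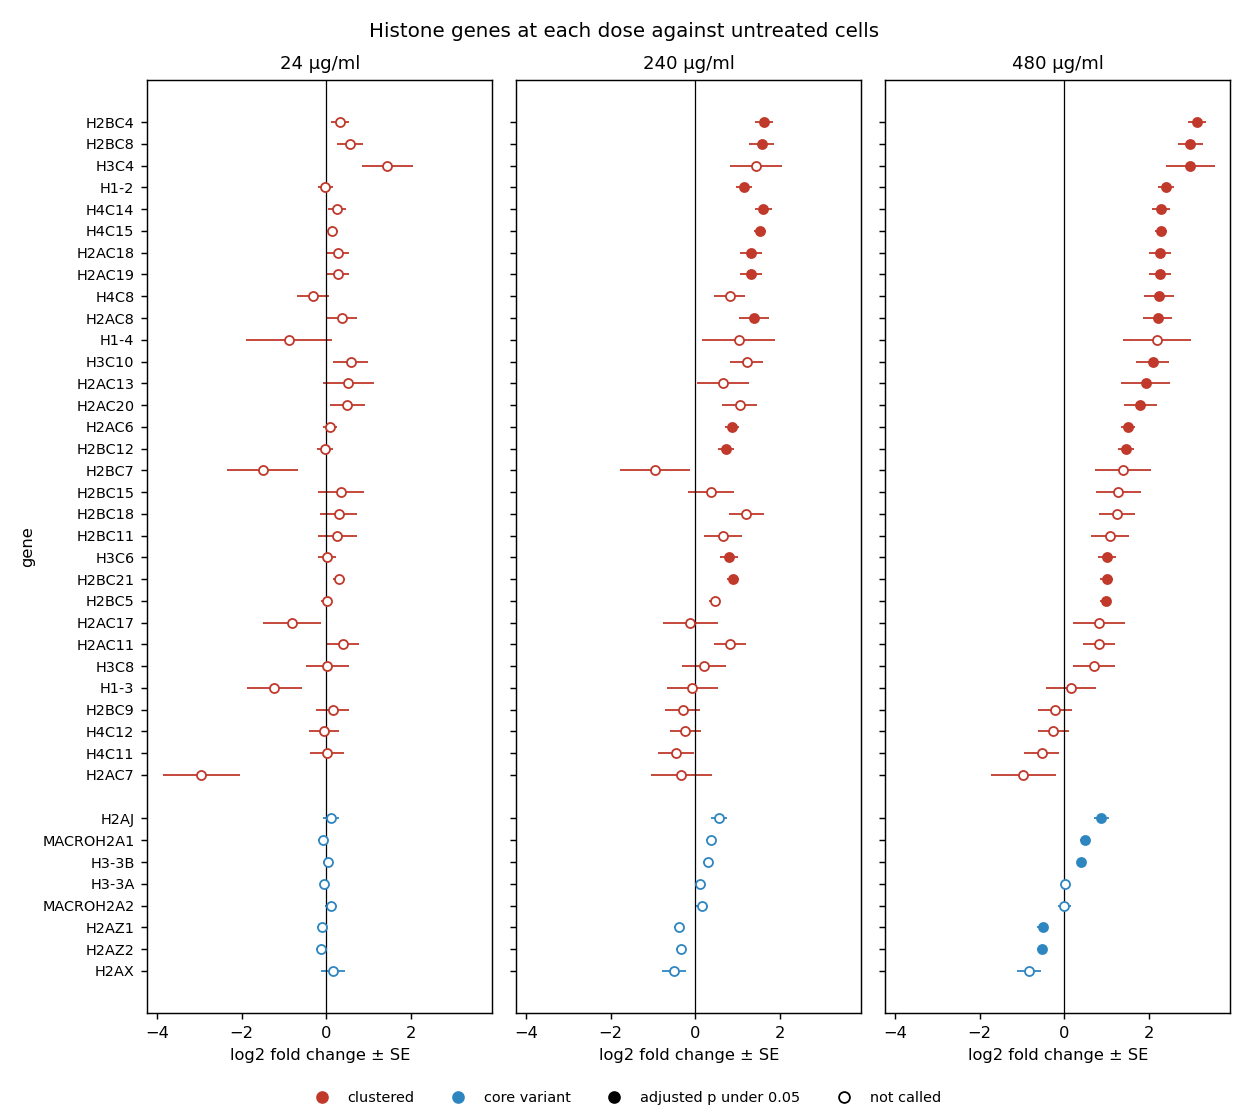
Log2 fold change ± SE against untreated cells (horizontal axis) for the 31 clustered and 8 variant genes that passed the filter, at each dose, ordered by the value at 480 µg/ml. Filled points have an adjusted p under 0.05; at 480 µg/ml 27 of 31 clustered genes lie above 0, whereas the variants lie on both sides of it.

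Among linker histones, which compact the chromatin fibre, the clustered signal was nearly all H1-2. H1-2 (chr6:26055740-26056470, minus strand, GRCh38.p14) stood at 17.2 and 15.4 CPM in untreated cells, 18.5 and 13.6 at 24, 39.96 and 32.3 at 240, and 76.9 and 94.2 CPM at 480 µg/ml. Its libraries did not overlap between untreated cells, 240 and 480 µg/ml. The log2 fold change was 1.15 ± 0.19 (adjusted p = 0.00948) at 240 and 2.39 ± 0.19 (adjusted p = 0.000155) at 480 µg/ml. The other 2 tested clustered linker genes were under 0.4 CPM in every library. H1-4 had 0.0899 and 0.0518 CPM in untreated cells and 0.316 and 0.340 CPM at 480 µg/ml, a log2 fold change of 2.18 ± 0.80 (adjusted p = 0.0736), and H1-3 had 0.288 and 0.138 CPM untreated against 0.245 and 0.227 CPM at 480 µg/ml.

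H2A and H2B form the outer dimers of the nucleosome, and their clustered genes often lie head to head, so that a single short stretch of DNA is the promoter of both. H2BC4 and H2AC6 share such a stretch on chromosome 6, H2BC8 and H2AC8 share another, and the members of each were called higher together at 240 and 480 µg/ml. Other head-to-head pairs differed. H2BC7 and H2AC7 were not called at 480 µg/ml, with log2 fold changes of 1.39 ± 0.66 and -0.97 ± 0.76. At 240 µg/ml H2BC21 was called and H2AC20 was not (adjusted p = 0.00977 and 0.138), and at 480 µg/ml both were. The stretches of H2BC4 with H2AC6 and of H2BC8 with H2AC8 are given from RefSeq (GRCh38.p14), read 5′ to 3′ on the plus strand. The promoter of H2BC9, which was not called, is given for comparison. In capitals are 3 motifs on either strand: the CCAAT box (CCAAT or ATTGG), the TATA box (TATAAA or TTTATA) and the octamer of H2B promoters (ATGCAAAT or ATTTGCAT).
H2BC4 and H2AC6, chr6:26123927-26124171: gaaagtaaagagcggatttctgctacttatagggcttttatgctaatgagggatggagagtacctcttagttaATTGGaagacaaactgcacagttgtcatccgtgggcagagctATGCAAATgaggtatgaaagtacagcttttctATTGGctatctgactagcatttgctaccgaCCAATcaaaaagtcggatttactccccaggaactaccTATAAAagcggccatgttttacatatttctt
H2BC8 and H2AC8, chr6:26216689-26216920: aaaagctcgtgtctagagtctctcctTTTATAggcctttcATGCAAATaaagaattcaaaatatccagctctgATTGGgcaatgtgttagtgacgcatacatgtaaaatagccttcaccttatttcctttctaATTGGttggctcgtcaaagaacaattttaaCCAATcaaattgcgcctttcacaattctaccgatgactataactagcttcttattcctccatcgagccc
H2BC9, chr6:26251364-26251613: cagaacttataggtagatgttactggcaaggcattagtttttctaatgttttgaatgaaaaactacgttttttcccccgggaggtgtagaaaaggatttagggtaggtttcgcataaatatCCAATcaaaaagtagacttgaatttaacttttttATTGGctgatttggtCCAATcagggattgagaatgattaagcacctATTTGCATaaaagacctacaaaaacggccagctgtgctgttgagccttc
Each of the 3 holds 3 CCAAT boxes and 1 octamer, and both shared stretches hold 1 TATA box, which H2BC9 lacks in these letters. Over the 250 bases before the start of all 35116 RefSeq promoters, 32.0% hold the CCAAT box, 10.7% the TATA box and 1.63% the octamer, against 86.2%, 67.7% and 41.5% of 65 promoters of 61 clustered genes. Of these 65, 22 belong to genes called higher at 240 or 480 µg/ml and 43 to the rest, untested genes included. The TATA box was in 72.7% of the 22 and 65.1% of the 43, the CCAAT box in 86.4% and 86.0%, and the octamer in 40.9% and 41.9%. A link of any motif to the calls was not tested.

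At 480 µg/ml H2BC4, H2BC8 and H3C4 had the highest log2 fold changes of the tested members and lay within their standard errors of each other. Of these, H3C4 had under 10 counts in both untreated libraries and was tested only because of its treated ones. H2BC4 stood at 3.02 and 2.99 CPM in untreated cells, 4.52 and 3.00 at 24, 10.3 and 8.23 at 240, and 26.2 and 26.8 CPM at 480 µg/ml, so the 480 µg/ml libraries lay close together and far above the rest. The log2 fold change was 1.62 ± 0.21 (adjusted p = 0.00395) at 240 and 3.14 ± 0.21 (adjusted p = 0.000107) at 480 µg/ml. Its partner H2AC6 rose from 6.46 and 5.68 CPM to 12.1 and 9.97 at 240, and 17.1 and 17.3 CPM at 480 µg/ml, with 7.00 and 5.91 CPM at 24 µg/ml and a log2 fold change of 1.503 ± 0.16 (adjusted p = 0.000454) at the highest dose. The 2 genes thus rose together but by different amounts. H2BC8 was a low gene, at 0.306 and 0.414 CPM in untreated cells, 0.574 and 0.497 at 24, 1.15 and 0.996 at 240, and 2.65 and 3.06 CPM at 480 µg/ml, a log2 fold change of 2.98 ± 0.29 (adjusted p = 0.000319). H2AC8, across the shared stretch, went from 0.629 and 0.570 CPM untreated, through 0.967 and 0.585 at 24 and 1.54 and 1.62 at 240, to 2.03 and 3.48 CPM at 480 µg/ml, a log2 fold change of 2.20 ± 0.35 (adjusted p = 0.00253). At every dose above 24 µg/ml both libraries of these 4 genes lay above both untreated ones.

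Other H2B genes with more signal rose less. H2BC12 stood at 19.2 and 16.8 CPM untreated and at 19.6 and 15.5 at 24, 29.2 and 29.99 at 240, and 41.01 and 57.97 CPM at 480 µg/ml, with log2 fold changes of 0.72 ± 0.19 (adjusted p = 0.0444) and 1.46 ± 0.19 (adjusted p = 0.00103) at 240 and 480 µg/ml. H2BC21 had 4.64 and 4.16 CPM, then 5.17 and 5.69 at 24, 8.01 and 8.29 at 240, and 8.73 and 8.87 CPM at 480 µg/ml. It was called at both doses, with a log2 fold change of 0.89 ± 0.15 at 240 and 0.999 ± 0.15 at 480 µg/ml, so most of its difference was present at the middle dose. H2BC5 went from 17.4 and 16.5 CPM untreated to 18.6 and 15.7 at 24, 24.6 and 22.2 at 240, and 32.8 and 33.99 CPM at 480 µg/ml and was called at 480 µg/ml alone, with 0.46 ± 0.13 (adjusted p = 0.0562) at 240 and 0.97 ± 0.13 (adjusted p = 0.00123) at 480 µg/ml. The deposited FPKM imply gene lengths of 2510 bases for H2BC4, 2382 for H2BC21, 897 for H2BC12 and 883 for H2BC5. The other H2B genes with enough counts for such a value lay between 502 (H2BC9) and 622 bases (H2BC18). The annotation behind these lengths is not given, so they are not set against the GENCODE models.

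In the H2A family H2AC18 and H2AC19 gave the strongest signal at 480 µg/ml. Their transcripts are near copies (the 549 bases of H2AC18 lie wholly within those of H2AC19) and their counts kept a ratio of 0.931 to 0.942 in every library. They are therefore described here as 1 measurement, although the numbers of called genes count them separately. H2AC18 stood at 5.86 and 4.87 CPM in untreated cells, 7.74 and 5.32 at 24, 14.3 and 12.5 at 240, and 19.4 and 31.9 CPM at 480 µg/ml, with log2 fold changes of 1.32 ± 0.26 (adjusted p = 0.0183) and 2.26 ± 0.27 (adjusted p = 0.000711). The 480 µg/ml libraries lay far apart here. H2AC20 stood at 0.719 and 0.345 CPM untreated, 0.861 and 0.643 at 24, 1.29 and 0.914 at 240, and 1.54 and 2.16 CPM at 480 µg/ml and was called at the highest dose, 1.80 ± 0.40 (adjusted p = 0.0105). H2AC13, under 1 CPM throughout, was called there too at 1.92 ± 0.58 (adjusted p = 0.0374), but lost the call under DESeq2, with an adjusted p of 0.0669. It had under 10 counts in 1 untreated library and passed the filter with the help of treated ones.

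H3 and H4 form the inner tetramer. H4C15 had close replicates, at 5.77 and 6.20 CPM in untreated cells, 6.51 and 6.56 at 24, 16.2 and 18.1 at 240, and 26.9 and 31.6 CPM at 480 µg/ml. Its log2 fold change was 1.52 ± 0.14 (adjusted p = 0.0013) at 240 and 2.29 ± 0.14 (adjusted p = 0.000105) at 480 µg/ml, and it was the only member called at 240 µg/ml under every alternative that tested it. The 583-base transcript of H4C14 lies wholly within that of H4C15, so reads of these copies cannot be assigned with certainty. The RefSeq span of H4C15 also holds all 534 bases of H2AC19 and all 518 of H3C15, on the other strand, and whether their reads enter its counts was not tested. H4C14 went from 1.62 and 1.61 CPM untreated to 1.93 and 1.90 at 24, 4.42 and 5.40 at 240, and 6.79 and 8.99 CPM at 480 µg/ml. H4C8 was at 0.432 and 0.484 CPM untreated, 0.272 and 0.468 at 24, 0.961 and 0.653 at 240, and 1.96 and 2.37 CPM at 480 µg/ml, a log2 fold change of 2.24 ± 0.35 (adjusted p = 0.00231) at the highest dose. H3 genes were low. H3C6 stood at 1.85 and 1.68 CPM untreated and 1.92 and 1.65 at 24, 3.27 and 2.86 at 240, and 3.33 and 3.78 CPM at 480 µg/ml, with 1.01 ± 0.20 (adjusted p = 0.00721) at 480 µg/ml. H3C10 went from 0.270 and 0.190 CPM untreated, through 0.378 and 0.307 at 24 and 0.461 and 0.604 at 240, to 1.07 and 0.891 CPM at 480 µg/ml, 2.08 ± 0.39 (adjusted p = 0.00486). H3C4, which had under 10 counts in both untreated libraries and so was tested only because of its treated ones, went from 0.144 and 0.138 CPM untreated, through 0.363 and 0.409 at 24 and 0.596 and 0.180 at 240, to 0.894 and 1.35 CPM at 480 µg/ml, 2.97 ± 0.58 (adjusted p = 0.00607). Its RefSeq span holds all 510 bases of H2AC7, so their reads may not be told apart there.

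Some clustered genes showed no call. At 480 µg/ml 13 of the 31 were not called, and 4 lay below 0. H2BC9 stood at 0.557 and 0.518 CPM in untreated cells and 0.403 and 0.519 CPM at 480 µg/ml, a log2 fold change of -0.22 ± 0.40 (adjusted p = 0.718). The H4 gene H4C11 had 0.503 and 0.501 CPM untreated against 0.368 and 0.324 CPM at 480 µg/ml, -0.54 ± 0.42 (adjusted p = 0.373), and H4C12, whose 312-base coding model lies wholly within the transcript of H4C11, had 0.593 and 0.518 CPM against 0.509 and 0.421 CPM. All 3 were under 0.8 CPM in every library; these groups overlapped for H2BC9, and for both H4 genes the 480 µg/ml libraries lay slightly below the untreated ones. H2BC18 was close to the threshold, with 0.180 and 0.207 CPM untreated and 0.421 and 0.502 CPM at 480 µg/ml, a log2 fold change of 1.25 ± 0.42 (adjusted p = 0.0541).

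**Figure D3:**
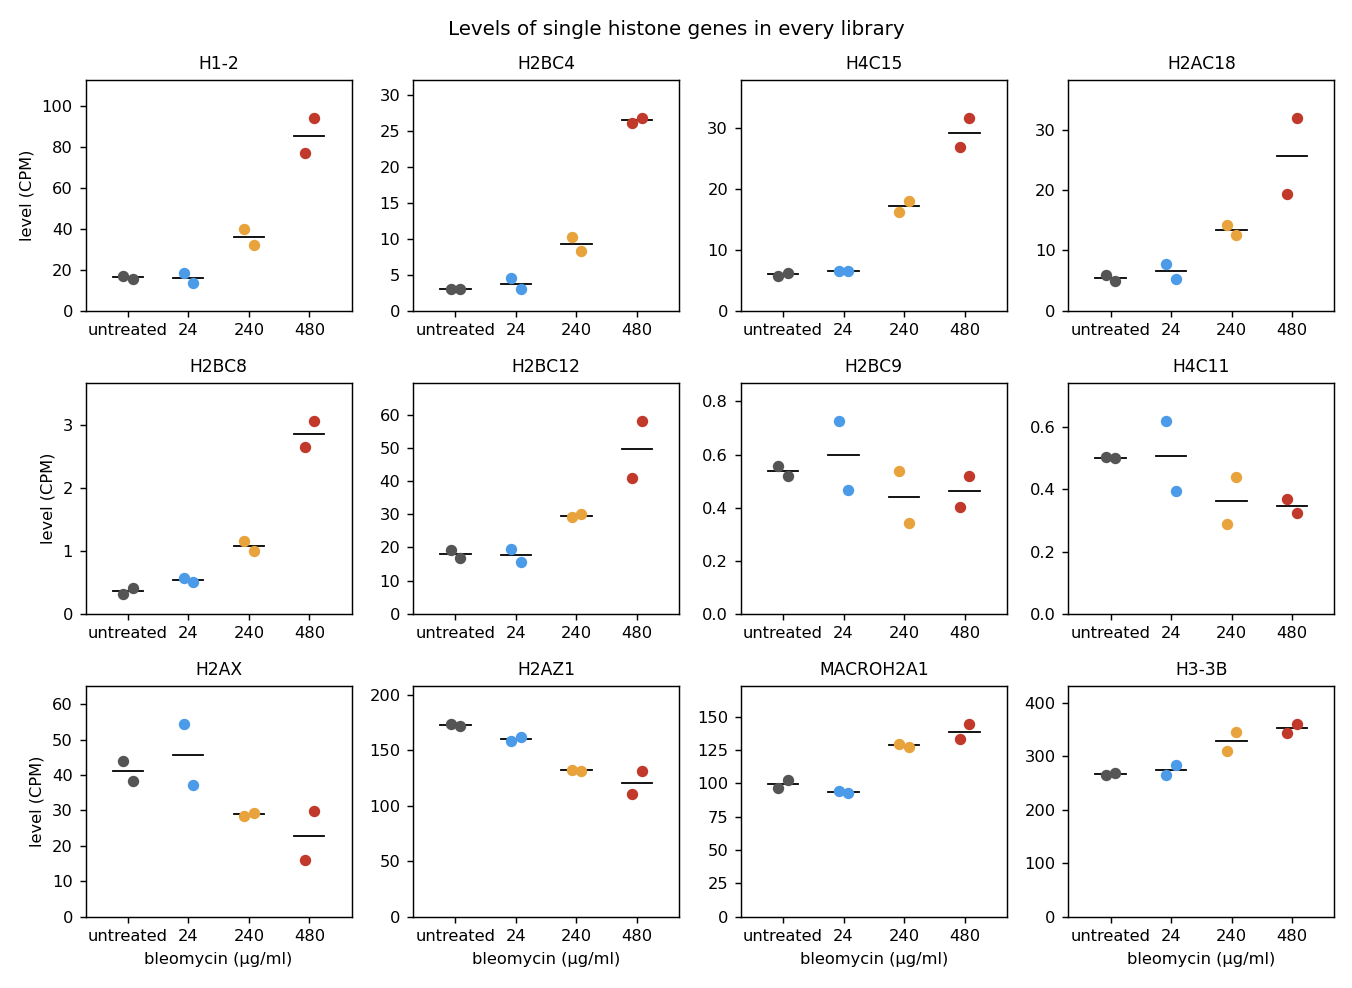
Level in CPM (vertical axis, each panel from 0) of 12 histone genes against bleomycin dose in µg/ml; points are libraries and bars the mean of 2. In the upper row and the first 2 panels of the middle row the 240 and 480 µg/ml libraries lie above the untreated ones; H2BC9 and H4C11 stay under 0.8 CPM without such a step, and H2AZ1 falls while MACROH2A1 and H3-3B rise slightly.

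Of the solitary linker genes, H1-10 had 84.6 and 68.9 CPM untreated and 79.4 and 117 CPM at 480 µg/ml, which overlapped, and 0.36 ± 0.22 (adjusted p = 0.259). The germ cell linker genes H1-7 and H1-8 had no count in any library.

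Among the variants of H2A the directions split. H2AZ1, the main gene of H2A.Z, which sits beside transcription start sites, stood at 173 and 172 CPM untreated, 158 and 162 at 24, 132 and 132 at 240, and 110.2 and 131 CPM at 480 µg/ml. It was called lower at 480 µg/ml, -0.51 ± 0.12 (adjusted p = 0.0135). H2AZ2, its sister gene, had 97.3 and 97.9 CPM, then 85.6 and 93.3 at 24, 74.9 and 80.1 at 240, and 66.1 and 69.6 CPM at 480 µg/ml, and was called lower there as well, -0.52 ± 0.11 (adjusted p = 0.00965). For both genes each library at 240 and 480 µg/ml lay below both untreated ones. H2AX, the variant phosphorylated at DNA breaks and the one whose mRNA can carry the stem-loop, had 43.8 and 38.2 CPM untreated, 54.3 and 37.1 at 24, 28.4 and 29.3 at 240, and 15.9 and 29.97 CPM at 480 µg/ml. Its log2 fold change of -0.84 ± 0.28 (adjusted p = 0.0519) at 480 µg/ml missed the threshold, which DESeq2 passed with an adjusted p of 0.00405; each library at 240 and 480 µg/ml lay below both untreated ones. In the annotation H2AX overlaps DPAGT1 over all its 1592 bases, the strand counted is not given in the sources used here, and DPAGT1 (looked up after the overlap was seen) changed by -0.02 ± 0.13.

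Of the other variants 3 were called higher at 480 µg/ml and 2 were not called. H2AJ, an H2A variant reported in senescent cells, stood at 33.1 and 29.4 CPM untreated, 35.2 and 32.4 at 24, 46.6 and 45.4 at 240, and 45.99 and 68.5 CPM at 480 µg/ml and was called higher at the highest dose, 0.87 ± 0.18 (adjusted p = 0.00807). MACROH2A1, which carries a large globular domain and is enriched in silent chromatin, had 96.5 and 102 CPM untreated and 94.1 and 93.2 at 24, 129.9 and 127 at 240, and 133 and 144 CPM at 480 µg/ml, 0.48 ± 0.11 (adjusted p = 0.0123) at 480 µg/ml. Its paralog MACROH2A2 stood at 23.6 and 23.8 CPM untreated, 26.8 and 24.2 at 24, 23.6 and 29.02 at 240, and 21.9 and 25.6 CPM at 480 µg/ml, 0.00 ± 0.15 (adjusted p = 0.987), with overlapping libraries. H3-3A and H3-3B encode the same protein, H3.3. H3-3A had 267 and 255 CPM untreated, 246 and 262 at 24, 276 and 285 at 240, and 256 and 276 CPM at 480 µg/ml, 0.03 ± 0.11 (adjusted p = 0.878). H3-3B went from 265 and 268 CPM untreated, through 265 and 284 at 24 and 311 and 346 at 240, to 345 and 360.0 CPM at 480 µg/ml, 0.40 ± 0.11 (adjusted p = 0.0274). Whether these 2 genes differ was not tested. When the fit held only untreated and 480 µg/ml libraries, 1 variant was called higher and none lower, and 1 or none was called in either direction when an untreated library was left out.

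The step from 24 to 240 µg/ml and the step from 240 to 480 µg/ml were compared directly. From 24 to 240 µg/ml 9 of 31 clustered genes were called higher and none lower, where 3.34% of all genes were called higher, 3.49% lower and 6.83% in either direction, and 1 variant, MACROH2A1, was called higher at 0.46 ± 0.11 (adjusted p = 0.0436). From 240 to 480 µg/ml only 5 of all genes tested were called higher (0.0273%) and 42 lower (0.229%), 0.257% in either direction. Of those 5, 2 were clustered histone genes: H1-2, at 1.24 ± 0.18 (adjusted p = 0.0402), and H2BC4, at 1.52 ± 0.20 (adjusted p = 0.039). The median over the 31 clustered genes at this step was 0.75, and 28 of them lay above 0. Neither call held in a fit of the 2 groups alone, whose adjusted p was 0.204 for H1-2 and 0.16 for H2BC4 at log2 fold changes of 1.25 and 1.52. That edgeR fit called 0 of the 18303 genes, with 1261 at an unadjusted p under 0.05. DESeq2 called 7 clustered genes at this step, and 38 genes higher and 286 lower over the 18303.

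By family, the summed level at 480 µg/ml was 5.18-fold the untreated mean for H1, 4.27-fold for H4, 3.94-fold for H2A, 2.79-fold for H2B and 2.37-fold for H3. On the deposited TPM these were 4.98-fold for H1, 3.58-fold for H4, 3.75-fold for H2A, 2.44-fold for H2B and 2.35-fold for H3, so the order of H4 and H2A depends on the scale. The H2A sum was 62.5 and 90.5 CPM in the 480 µg/ml libraries. Differences between families were not tested. The share of H1-2 in the clustered sum went from 17.6% of the untreated mean to 25.7% at 480 µg/ml, and that of H2BC5 from 18.4% to 10.1%. Without H1-2 the sum at 480 µg/ml was 3.24-fold the untreated mean, and without H2AC19, H4C14 and H3C15, which are near copies of other members, 3.496-fold. The 6 genes that led in untreated cells, H2BC12, H2BC5, H1-2, H2AC6, H4C15 and H2AC19, held between 71.9% and 74.6% of the sum in every library.

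**Figure D4:**
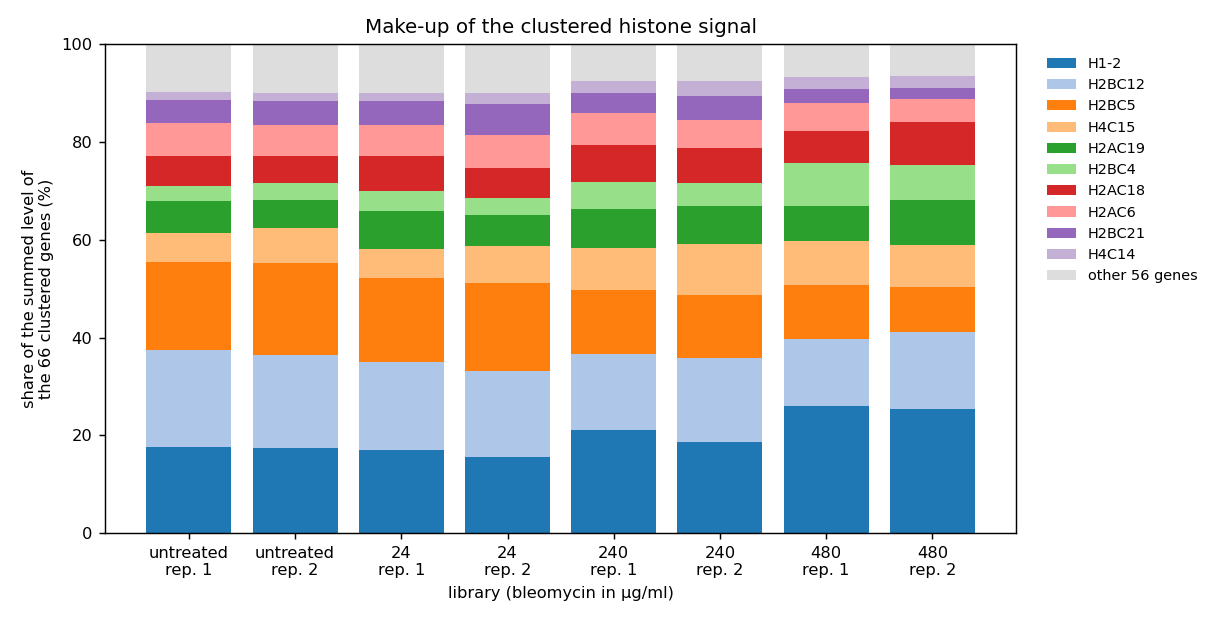
Share (%) of the summed CPM of the 66 clustered genes held by each of the 10 highest, in each of the 8 libraries. The share of H1-2 is 17.6% on average in untreated cells and 25.7% at 480 µg/ml, and that of H2BC5 drops from 18.4% to 10.1%.

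The called genes came from each of the places where clustered genes lie. On chromosome 1 (149782689 to 149887965, GRCh38.p14) 11 members lie together, of which 7 were tested and 6 called higher at 480 µg/ml. On chromosome 6 the first block (25726063 to 26285534) holds 34, with 15 tested and 9 called, and the second block (27132316 to 27893891) holds 21, with 9 tested and 3 called. Chromosome 1 holds near copies, H2AC18 with H2AC19 and H4C14 with H4C15, which count as separate genes in these numbers. Over all genes tested 13.9% were called higher at 480 µg/ml, and differences between the places were not tested.

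Genes that serve histone supply were read in 2 lists. Of 17 genes for transcription and 3′ processing of histone mRNA, 1 was lower at 240 µg/ml, and 2 were lower and 1 higher at 480 µg/ml, shares near or under the 5.17% and 13.9% of all genes called lower. ZNF473, a zinc finger protein of the U7 processing machinery, changed by -0.70 ± 0.14 and -0.80 ± 0.14 (adjusted p = 0.00363). CASP8AP2, needed for histone transcription, changed by -0.93 ± 0.23 (adjusted p = 0.016), and MIF4GD, a partner of SLBP in translation, by 1.13 ± 0.21 (adjusted p = 0.00436) at 480 µg/ml. SLBP itself had -0.33 ± 0.11 (adjusted p = 0.0574) and the activator gene NPAT -0.47 ± 0.20 (adjusted p = 0.108), neither past the threshold. Of 29 histone chaperone and deposition genes, 6 were lower at 240 and 13 at 480 µg/ml and none higher, beside the same 5.17% and 13.9%. Among them MCM2, a helicase subunit that also binds H3 and H4, changed by -1.53 ± 0.18, HJURP, the chaperone of the centromeric H3, by -1.51 ± 0.18, ASF1B by -1.33 ± 0.15 and CHAF1A, of the replication-coupled assembly factor CAF-1, by -1.14 ± 0.13. CENPA, the centromeric H3 gene itself, which is outside the symbol rule, stood at 6.56 and 6.06 CPM untreated and 1.82 and 1.82 CPM at 480 µg/ml, -1.79 ± 0.16 (adjusted p = 0.000271).

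S phase genes fell in the same libraries in which the clustered histone genes rose. Of 21 S phase and proliferation genes, 14 were called lower and 1 higher at 240 µg/ml, and 18 lower and 1 higher at 480 µg/ml, the exception being TYMS, of thymidylate synthesis, at 0.71 ± 0.11 and 0.60 ± 0.11. Over all genes tested, 5.17% were called lower and 5.16% higher at 240 µg/ml, and 13.9% lower and 13.9% higher at 480 µg/ml. MCM7, a subunit of the replicative helicase, changed by -1.001 ± 0.13 and -1.86 ± 0.13. The sum of the 21 was 1066 and 1131 CPM untreated, 1064 and 1111 at 24, 719 and 678 at 240, and 520.2 and 475 CPM at 480 µg/ml. In bulk RNA, fewer cells in S phase and less RNA per such cell cannot be told apart.

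RNAs that normally lack a poly(A) tail were summed beside the clustered genes. A list of 18 such RNAs came to 29.2 and 15.2 CPM untreated, 19.2 and 30.9 at 24, 55.6 and 124 at 240, and 28.6 and 28.8 CPM at 480 µg/ml. At 240 µg/ml RN7SL1, RN7SL2 and RN7SL3, of the signal recognition particle, were called higher, and at 480 µg/ml none of the 5 tested was called. On the means the list stood at 4.05-fold the untreated level at 240 and 1.29-fold at 480 µg/ml. A wider set of 865 small nuclear and nucleolar RNA genes, chosen by symbol after the data were seen, stayed between 22.2 and 25.8 CPM in all 8 libraries. Ribosomal RNA stood at 16677 and 40656 CPM and mitochondrial mRNA at 11134 and 23828 CPM in the 2 libraries of 480 µg/ml, whereas untreated libraries had 20396 and 16645 CPM of the former and 11743 and 11869.6 CPM of the latter. The clustered sum in the same 2 libraries of 480 µg/ml was 297 and 369.5 CPM. Of the cell type lists, 9 hepatic marker genes summed to 54034 and 55635 CPM untreated and 70934 and 66584 CPM at 480 µg/ml, with 4 called higher. The 10 type 2 alveolar markers summed to 163 and 165 CPM untreated against 94.99 and 103 CPM, with 1 higher and 4 lower of the 7 tested. The 7 intestinal markers summed to 2766 and 2759 CPM untreated against 3039.6 and 2652 CPM, with 1 higher and 3 lower of the 6 tested. At 480 µg/ml 13.9% of all genes tested were called higher and 13.9% lower. The part of these RNAs and markers in the histone values was not tested.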

How the data were processed

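RNA-seq of 8 libraries (4 groups of 2) was used. Per the submitters' processing notes, the authors used Trimmomatic, HISAT2, Bowtie2 and StringTie with build GRCh38; versions, the annotation release and the strand counted are not given in the sources used here. The authors deposited whole-number read counts, TPM and FPKM per gene symbol. The deposited counts were not normalized; the deposited TPM were used for levels per length and 1 alternative, and the deposited FPKM only for implied gene lengths.

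Counts were fitted with edgeR 4.0.16 in R 4.3.3: filterByExpr (10 counts, 15 in total), TMM factors, and a quasi-likelihood test in which all 8 libraries entered by group without further terms; p-values were adjusted by Benjamini-Hochberg over 18303 genes and called at 0.05. CPM are TMM scaled. Alternatives were DESeq2 1.42.0, RLE factors, no filter, a stricter filter (50 counts in 2 libraries), only the 2 groups compared, a replicate block, leaving out each library, and limma 3.58.1 on log2(TPM + 1). Averaging near copies, leaving them out of the sum, dropping both 480 µg/ml libraries and crossing that group's numbers in the block were added after the data were seen. The test was checked on simulated data. The rule for giving values in every library took the 20 called members with the smallest p and the 8 variants; 1 solitary linker gene is not reported here. Members and lists were chosen with earlier results of these data known.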

Additional observations from a re-analysis of the deposited data

How the results depend on the processing

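At 480 µg/ml the 18 clustered calls became 16 to 22 under the settings that kept all libraries of the groups compared, and 15 to 18 when a library was left out; no alternative called a clustered gene lower. H1-2, H2AC18, H2AC6, H2AC8, H2BC12, H2BC21, H2BC4, H2BC5, H2BC8, H3C10, H4C14, H4C15 and H4C8 were called at that dose under each alternative that tested them. So was H3C4, which was tested only because of its treated libraries. Over all genes, the settings with all libraries called 1308 (the 2 groups compared) to 2806 (no filter) higher at 480 µg/ml. At 240 µg/ml the 12 clustered calls became 9 to 13 under the other settings. Over all genes these called 539 (limma) to 2660 (the 2 groups compared) higher. With a library left out, clustered calls at 240 µg/ml and from 24 to 240 µg/ml varied widely. At the latter step they vanished in some fits, in which calls over all genes nearly or wholly vanished too. In these fits a lone library is assumed to vary like the other groups.

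From 240 to 480 µg/ml the 2 clustered calls became 7 under DESeq2, 9 with no filter, 0 in a fit of the 2 groups compared, 0 under limma on log2(TPM + 1) and 0 to 10 with a library left out, 10 without 480 µg/ml replicate 1, where 397 of all genes were called higher and 1033 lower, against 5 and 42 at first. Variants called there numbered 0 to 1 higher and 0 to 1 lower with a library left out.

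Variant calls depended on the setting. At 240 µg/ml, with none in either direction at first, 2 were higher and 1 lower under DESeq2, 1 higher with no filter, 1 higher with the stricter filter, 3 higher and 3 lower in a fit of the 2 groups compared, 1 lower under limma, 3 higher and 3 lower without both 480 µg/ml libraries, and 0 to 3 each way with a library left out. Over all genes, 945 higher and 947 lower at first became 2660 and 2739 in the fit of the 2 groups and 2487 and 2590 without both 480 µg/ml libraries. At 480 µg/ml, with 3 higher and 2 lower, the fit of the 2 groups compared called 1 higher and 0 lower, and leaving out a library gave 0 to 3 each way, 0 of either without untreated replicate 2. From 24 to 240 µg/ml, with 1 higher and 0 lower, DESeq2 called 1 lower, no filter 0 higher and 1 lower, the 2 groups compared 2 higher and 2 lower, limma 0 higher, dropping both 480 µg/ml libraries 3 higher and 2 lower, and leaving out a library 0 to 2 each way. The cause was not tested. The summed variant level reversed on the deposited TPM, with a log2 ratio of -0.1046 at 240 and -0.09188 at 480 µg/ml.

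With replicate number as a block, clustered calls were 9 at 240 and 17 at 480 µg/ml, 5 from 24 to 240 and 0 from 240 to 480 µg/ml, and variant calls from 24 to 240 µg/ml were 0 higher. The numbers were not shown to pair the samples: same-numbered libraries had correlations of their deviations from -0.356 to 0.144. Crossing the 480 µg/ml numbers in the block, added after the data were seen, gave 18 clustered calls at 480 µg/ml. limma on TPM called 539 genes higher and 853 lower at 240 µg/ml, 38.7% higher against 49.9% in edgeR, and 35.4% against 49.0% from 24 to 240 µg/ml. It shifted the median over all genes by under 0.1. Low counts limit the 35 clustered genes that were not tested, for which nothing is stated, and near copies share reads.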
